A study of Rattus norvegicus with 6 samples.

Results

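The response to fracture on an alcohol diet was read as the difference alcohol-fed fracture minus alcohol-fed no fracture, on 26481 of 26503 probes and from 5 of the 6 deposited pairings of a rat study. Probes were averaged by gene into 23549 rows, of which 12589 were named genes. In the alcohol-fed fracture group, Sprague-Dawley rats received a liquid Lieber and DeCarli diet with ethanol from 4 weeks of age for 4 weeks, and a pinned, closed break of the bone shaft was then made. Tissue of the break in the right hind-limb was taken 3 days later. The alcohol-fed no fracture group had the same diet and no surgical fracture, and the labels do not say whether these rats had the pin. The 2 pair-fed groups, with and without fracture, had the matched diet without ethanol and enter here mainly as links between the alcohol-fed groups. Each of the 4 groups had 3 numbered samples, and each numbered sample was hybridised in 1 pairing against a sample of another group. The labels do not say that a number stands for 1 rat.

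A closed long-bone fracture heals through a blood clot, an inflammatory stage, a soft callus and a hard callus. In the inflammatory stage neutrophils and then macrophages enter the clot, chemokines call in further cells, and mesenchymal cells of periosteum, marrow and nearby muscle begin to divide. Tissue milled from the break can hold bone, marrow with its red cell and B cell precursors, clot, periosteum, vessels and muscle. In such bulk tissue, fewer cells of a type and less RNA per cell cannot be told apart. A ratio between samples gives no level, so the presence of bone markers in the tissue could not be checked.

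The difference was measured in 3 ways that share no column and no numbered sample. The direct pairing hybridised the alcohol-fed groups with each other. The path through pair-fed fracture subtracted the ratio of that group over alcohol-fed fracture from its ratio over alcohol-fed no fracture, and the path through pair-fed no fracture did the same with the other pair-fed group. The fitted value of a gene combined them with a weight of 0.5 on the direct pairing and weights of 0.25 or -0.25 on the 4 columns of the paths, and the remaining pairing added only to the estimate of error. Each way rests on a single sample per group and column, so it has no replicate of its own, and the standard error (SE) comes from the disagreement of all 6 pairings. All values are differences of log ratios, and since the sources used here do not name the log base they are not turned into folds. A positive value lies towards the alcohol-fed fracture group if the first-named group of each title is the numerator, and neither the dyes nor the data settle this.

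The doubt is largest for the path through pair-fed fracture. Over 26481 probes the ratio of pair-fed fracture over alcohol-fed fracture and that of pair-fed fracture over alcohol-fed no fracture had a correlation of -0.616 although they share the numerator group. The latter column correlated at 0.258 with pair-fed fracture over pair-fed no fracture, which shares its numerator. With columns that share its denominator it had 0.234 (direct pairing) and -0.273 (pair-fed no fracture over alcohol-fed no fracture). Turning it would reverse each of these signs. The fit left 0.403 of the sum of squares unexplained with the columns read as titled, where no group differences would leave 0.5. It left 0.317 with the column of pair-fed fracture over alcohol-fed no fracture turned and 0.429 with that of pair-fed fracture over alcohol-fed fracture turned. The reading behind the calls below thus fitted less closely than the first of these turned readings, under which no row was called. Fitted values are therefore also given with the column of pair-fed fracture over alcohol-fed no fracture turned, called the turned reading below. For the 3 pairings among the alcohol-fed groups and pair-fed no fracture, which leave both columns out, counts of calls are given. The standard deviation over rows was 0.558 on the direct pairing, 0.489 on the path through pair-fed no fracture and 0.842 on the path through pair-fed fracture, or 0.415 when turned. Across rows, which are not independent replicates, the direct values correlated at 0.37 with the path through pair-fed no fracture and at 0.36 with the path through pair-fed fracture, or 0.26 when turned. The paths through the pair-fed groups correlated with each other at 0.06, or 0.22 when turned. The 10 spots named Alien, control spots of the array, lay between -0.245 and 0.182 on the direct pairing. Turning all columns at once would turn every sign given below.

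**Figure D1:**
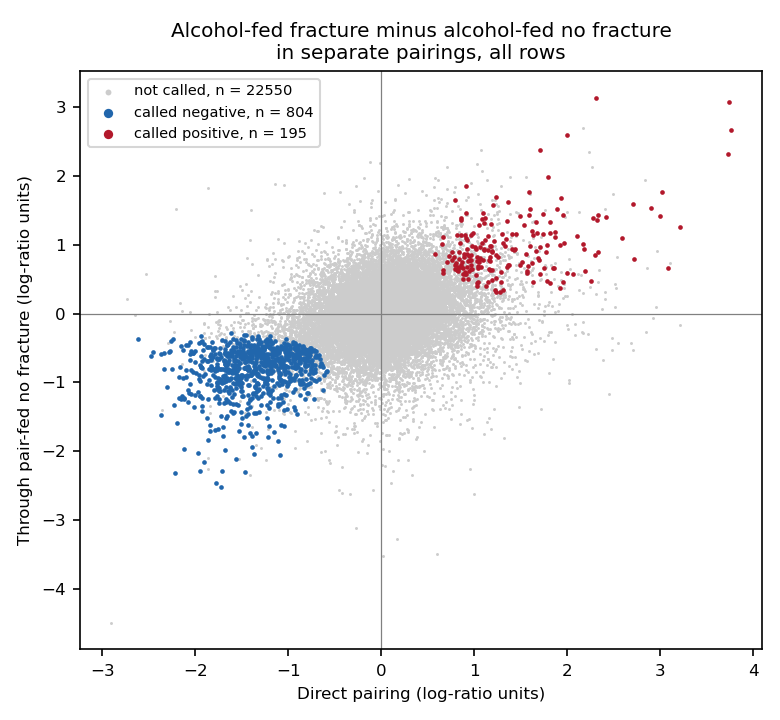
Each point is 1 of 23549 rows, with its value on the direct pairing on the x axis and on the path through pair-fed no fracture on the y axis, both in log-ratio units. The 195 rows called positive (red) lie in the upper right and the 804 called negative (blue) in the lower left, which their choice on the fitted value favours, and most other rows (grey) lie around 0 on both axes.

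Limma called 999 of 23549 rows at a Benjamini-Hochberg adjusted p under 0.05, which is 4.24% of the rows tested, with 195 positive (0.828%) and 804 negative (3.41%). Of these, 106 positive and 420 negative rows were named genes. The fit to the 3 pairings without pair-fed fracture, which has 1 residual degree of freedom, called 519 rows (2.2%), with 166 positive (0.705%) and 353 negative (1.5%), and 387 rows were called in both fits, all with the same sign. These are 38.7% of the calls from all pairings and 74.6% of the calls from the 3 pairings, and they include 197 named genes, but the fits share columns. By direction they are 46.4% of the positive and 87.8% of the negative calls from the 3 pairings. With the turned reading limma called 0 rows, although 4183 had an unadjusted p under 0.05 and the smallest adjusted p was 0.0658. The count was also 0 without the pairing of the pair-fed groups, without that of pair-fed fracture with alcohol-fed no fracture and without the direct pairing, and it was 655 without that of pair-fed no fracture with alcohol-fed fracture. A gene is said to have risen or fallen below where it was called in the fit to all 6 pairings.

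Among called genes with the same sign in all 3 ways, the largest positive value was that of Kdf1, a factor of epidermal differentiation. Kdf1 had 3.73 on the direct pairing, 3.61 through pair-fed fracture and 2.31 through pair-fed no fracture. Its fitted value was 3.35 ± 0.28 (SE, limma adjusted p = 0.028), and it was 2.84 with the turned reading. Mustn1, found in nuclei of muscle and skeletal cells, followed with 3.00 directly and with 4.28 and 1.41 on the paths through the fractured and the unfractured pair-fed group, and its fitted value was 2.92 ± 0.42. Eps15, an endocytic adaptor, had 2.31 directly, 2.48 through pair-fed fracture and 3.14 through pair-fed no fracture, the highest value on the last path among these genes. Ccl7, which attracts monocytes, had 2.90 directly, 2.56 and 1.53 on the same paths, and 1.79 on the path through pair-fed fracture when turned. For each of these 4 genes every way gave a value outside the range of the Alien spots, which their choice as the largest values favours. The Alien spots also spread less than the rows, with standard deviations of 0.163 and 0.558 on the direct pairing.

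The other genes of this order were the ubiquitin hydrolase Uchl1, the splicing factor Crnkl1 and 4 genes of muscle, Tnni2, Actn2, Ampd1 and Cox6a2. Uchl1 had 2.27, 3.80 and 1.39 on the direct pairing, through pair-fed fracture and through pair-fed no fracture, and Crnkl1 had 2.71, 1.73 and 1.59. Over the 10 genes the direct values ran from 2.18 to 3.73, the values through pair-fed fracture from 1.73 to 4.28 and those through pair-fed no fracture from 0.47 to 3.14. On the last path Tnni2, Actn2, Ampd1 and Cox6a2 had 0.86, 0.47, 0.80 and 0.94, the lowest 4 of the 10. The turned path through pair-fed fracture was positive for 10 of 10, from 0.15 to 2.45, and 9 of 10 were called from the 3 pairings without that group. With the turned reading none of the 10 passed (limma adjusted p from 0.0658 to 0.167).

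**Figure D2:**
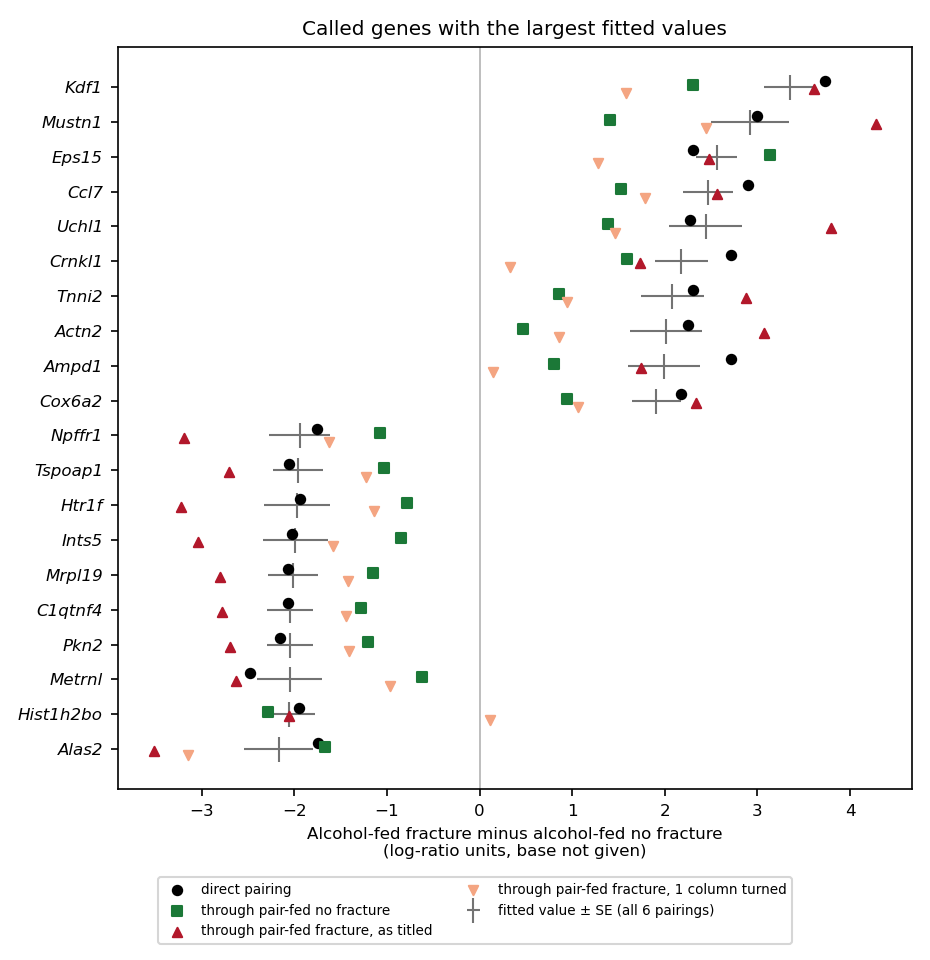
Rows are the 10 called genes with the largest positive and the 10 with the largest negative fitted values, and the x axis is the difference alcohol-fed fracture minus alcohol-fed no fracture in log-ratio units. Symbols give the direct pairing, the path through pair-fed no fracture and the path through pair-fed fracture as titled and turned, and grey bars give the fitted value with its SE, which ran from 1.91 to 3.35 for the positive and from -2.17 to -1.94 for the negative genes.

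The largest negative value was that of Alas2, the enzyme of the first haem-forming step in erythroid cells. It had -1.75 on the direct pairing, -3.52 through pair-fed fracture and -1.67 through pair-fed no fracture, and -3.15 on the path through pair-fed fracture when turned, so all ways agreed in sign. Its fitted value was -2.17 ± 0.37 (limma adjusted p = 0.0346). In the order of the titled reading it was followed by the H2B histone gene Hist1h2bo at -2.06 ± 0.28, C1qtnf4, a secreted protein, at -2.05 ± 0.25, the protein kinase Pkn2 at -2.05 ± 0.25, Metrnl, a hormone-like factor, at -2.05 ± 0.35 and the mitochondrial ribosomal protein Mrpl19 at -2.02 ± 0.27. The integrator subunit Ints5, the serotonin receptor Htr1f, the translocator-binding protein Tspoap1 and the neuropeptide receptor Npffr1 lay between -1.99 and -1.94. With the turned reading the 10 values ran from -2.08 to -1.45 and none passed (limma adjusted p from 0.0658 to 0.146). The order also changed, with Hist1h2bo at -1.52, Metrnl at -1.64 and Htr1f at -1.45, nearer to 0 than Dbp at -1.91 and Chmp5 at -1.75, which are not among the 10.

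The promoter stretches of Ccl7 and Alas2, the chemokine that rose most and the haem enzyme that fell most, are given from RefSeq on the build GRCr8, from 250 bases before to 50 after the start. Capitals mark matches of the motifs searched, which were TGANTCA (the AP-1 site), AGATAA on both strands (a GATA factor site), TATAAA on the gene's strand and the CArG box. None of these motifs overlap in the stretches.
Ccl7, chr10:67513845-67514144, plus strand: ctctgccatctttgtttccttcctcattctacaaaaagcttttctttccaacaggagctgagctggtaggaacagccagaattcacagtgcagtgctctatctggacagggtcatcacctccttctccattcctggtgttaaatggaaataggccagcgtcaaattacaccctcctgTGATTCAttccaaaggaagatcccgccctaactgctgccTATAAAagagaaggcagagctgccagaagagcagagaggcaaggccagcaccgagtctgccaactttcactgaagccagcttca
Alas2, chrX:22895200-22895499, plus strand: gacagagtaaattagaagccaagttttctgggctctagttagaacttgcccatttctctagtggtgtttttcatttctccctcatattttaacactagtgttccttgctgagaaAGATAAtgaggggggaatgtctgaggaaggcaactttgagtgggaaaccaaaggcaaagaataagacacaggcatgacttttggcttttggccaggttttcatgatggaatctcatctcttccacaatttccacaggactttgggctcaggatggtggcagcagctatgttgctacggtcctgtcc
The Ccl7 stretch held 1 AP-1 match and 1 TATAAA match, which 7.33% and 8.80% of all 33469 promoter stretches of this length hold. The Alas2 stretch held 1 GATA match, as do 11.6% of all stretches. A match describes the letters and is no evidence that a factor bound in these samples.

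These negative genes have no common function in that order, and several had nearly the same values in every column. C1qtnf4, Pkn2, Mrpl19 and Tspoap1 had -2.07, -2.15, -2.07 and -2.06 on the direct pairing. On the ratio of pair-fed fracture over alcohol-fed fracture they had 2.11, 2.06, 2.11 and 1.97. On the ratio of pair-fed fracture over pair-fed no fracture, which carries no alcohol-fed sample, they had 0.22, 0.22, 0.22 and 0.21. Only 4 of the other rows stayed within 0.25 of C1qtnf4 in all 6 columns, and 3 of these were the named genes just given. No row did so for Kdf1, Mustn1, Eps15, Ccl7, Alas2, Mki67 or Dbp. Over the 10 negative genes the standard deviation on the direct pairing was 0.21, against 0.49 over the 10 positive ones. Whether these probes were dim was not tested, since only ratios were used.

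The called rows as a whole spread as follows over the pairings. The 804 negative rows had a median of -1.35 on the direct pairing, with a 10th percentile of -1.87 and a 90th of -0.85. On the path through pair-fed fracture their median was -1.54, or -0.40 when turned, and on that through pair-fed no fracture it was -0.76. The 195 positive rows had medians of 1.19, 1.14, or 0.46 when turned, and 0.89. All called rows leaned the way of their fitted value on each pairing with an alcohol-fed fracture sample, which the choice on the fitted value favours. On the ratio of pair-fed no fracture over alcohol-fed no fracture, 95 of the 195 positive rows were above 0 and 100 below, and of the 804 negative rows 153 were above 0 and 648 below. The turned path through pair-fed fracture kept the sign of the fit for 161 of the positive and 670 of the negative rows.

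**Figure D3:**
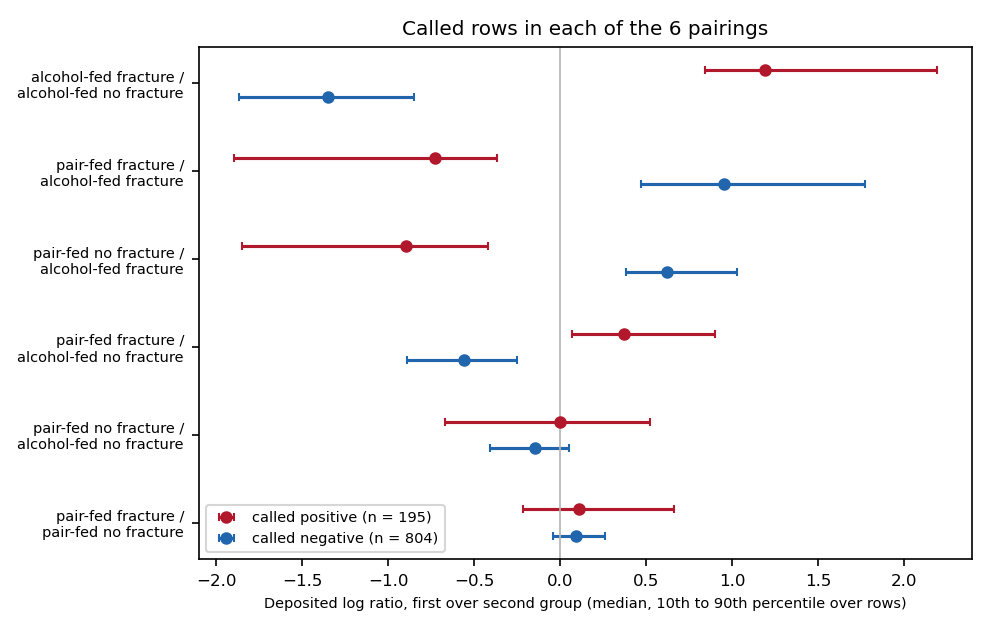
Points are medians, and bars the 10th to 90th percentiles, of the deposited log ratio over the 195 rows called positive (red) and the 804 called negative (blue), for each pairing as first over second group. The sets of rows part most in the pairings with alcohol-fed fracture samples, and the medians on pair-fed no fracture over alcohol-fed no fracture were 0.00 and -0.15.

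A second choice of genes used only the direct pairing and the path through pair-fed no fracture, and took the 10 in each direction whose smaller value on these was largest. The path through pair-fed fracture played no part in it and is therefore a separate measurement of the same difference. On the positive side Eps15 and Kdf1 were joined by Vim, the intermediate filament of mesenchymal cells, with 2.18 directly and 2.70 through pair-fed no fracture, Ptgfrn with 2.27 and 2.13, and Tagln, a contractile protein of smooth muscle and myofibroblasts, with 1.80 and 1.98. On the path not used for the choice Vim had 0.50, or 0.04 when turned, Ptgfrn 0.05 or -0.09, and Tagln 1.04 or -0.30. Of the 10 genes 8 were positive there as titled and 6 when turned. The olfactory receptor Or2t44b, Hint3 and Krtcap2 had 0.83, 0.28 and 0.56, or -0.62, 0.12 and -0.40. Bcat1, an enzyme of branched-chain amino acids, at -1.59 and Heyl, a Notch target of mural cells, at -0.87 were the exceptions as titled.

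The negative genes of that choice were the histone genes Hist1h2bo, H2bc8 and Hist2h2be, the endosomal sorting protein Chmp5, the endoplasmic reticulum stress gene Creld2, C2cd5, the circadian transcription factor Dbp, Ldhc, Zfp827 and Ypel5. Chmp5 had -1.47 directly, -2.30 through pair-fed no fracture and -1.45 on the unused path, or -1.78 when turned. Dbp had -1.70, -1.77 and -2.06 or -2.47. As titled 7 of the 10 were negative on the unused path, and Ldhc at 2.36, Ypel5 at 1.79 and Zfp827 at 1.87 were not. When turned 8 were negative, among them Ldhc, Ypel5 and Zfp827, and H2bc8 and Hist1h2bo were at 0.54 and 0.11. Among the first 100 negative genes by the same choice 82 were negative on the unused path as titled and 89 when turned, with medians of -1.58 and -0.85. Among the first 100 positive genes only 57 and 54 were positive, with medians of 0.19 and 0.04. Of all 12589 named genes 44.5% were positive on that path as titled and 51.6% when turned.

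**Figure D4:**
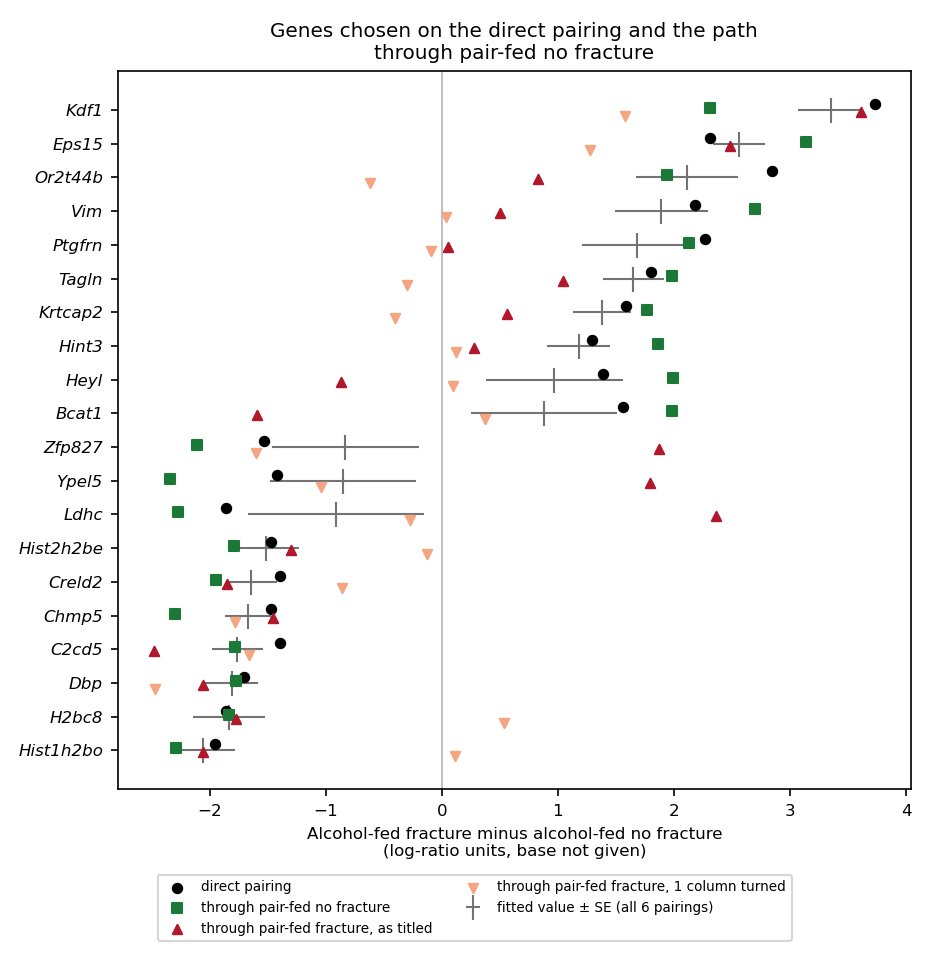
Rows are the 10 genes in each direction chosen on the direct pairing and the path through pair-fed no fracture, with the same axis and symbols as the plot of called genes. The unused path through pair-fed fracture (dark red triangles) ran from -1.59 to 3.61 for the positive genes and from -2.48 to 2.36 for the negative genes as titled.

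Muscle genes were described in 5 lists. Of 11 measured fast sarcomere proteins 4 rose and none fell, a share of 36.4% beside 4.24% of all rows (0.828% positive), and 10 had positive values. With the turned reading 0 of them were called. Their median was 0.50, or 0.31 with the turned reading, beside 0.02 over all rows with either reading. The fast troponin Tnni2 was at 2.08 ± 0.34, myosin-binding protein Mybpc2 at 1.73 ± 0.24, the myosin light chain Myl11 at 1.59 ± 0.22 and tropomyosin Tpm1 at 0.81 ± 0.16, where its 3 probes ran from 0.50 to 1.03. Mybpc2 had 1.75, 2.25 and 1.16 on the direct pairing, through pair-fed fracture and through pair-fed no fracture, and Myl11 had 1.59, 1.77 and 1.43, but only 0.08 and 0.32 on the turned path through pair-fed fracture. Skeletal actin Acta1, named after its values were seen, did not pass and had 2.39, 3.81 and -0.68. The list was chosen with earlier muscle results of these data known, so its count is no independent support.

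The other muscle lists held fewer calls. Shares of called genes were 7.14% for slow or shared sarcomere proteins, 10% for calcium handling and 17.6% for energy enzymes. They stand beside 4.24% of all rows, and 0 were called with the turned reading. Without pair-fed fracture 0 slow or shared sarcomere proteins were called. Of 14 slow or shared sarcomere proteins Actn2, an actin cross-linker of the Z-disc, rose (2.01 ± 0.39) and 13 did not pass. Among 10 calcium handling genes Cacng1, a subunit of the muscle calcium channel, rose (1.65 ± 0.29), and the median was 0.39, or 0.38 with the turned reading. Of 17 energy enzymes the AMP deaminase Ampd1 and the muscle cytochrome oxidase subunit Cox6a2 rose, and the muscle enolase Eno3 fell. Ampd1 had 2.72 directly but 0.15 on the turned path through pair-fed fracture. Eno3 had -1.37, -1.51 and -0.47, low in all 3 ways, and its fitted value was -1.18 ± 0.21. Creatine kinase Ckm at 1.77 ± 0.37 and glycogen phosphorylase Pygm at 1.79 ± 0.43 did not pass (limma adjusted p = 0.0533 and 0.0768), and both were named after their values were seen. The list medians on the direct pairing and through pair-fed no fracture were 0.62 against 0.21 for the fast proteins and 0.56 against 0.26 for calcium handling.

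Among 15 genes of muscle formation and regeneration, Mustn1 and Ankrd1, a stretch-responsive protein of striated muscle, rose and 13 did not pass. Ankrd1 had 1.10, 2.15 and 1.31 on the direct pairing, through pair-fed fracture and through pair-fed no fracture, and 2.17 on the turned path, so it was positive in every reading, and its fitted value was 1.42 ± 0.28. The differentiation factor Myog was at -0.04 ± 0.14 and the embryonic myosin Myh3 at -0.13 ± 0.17. The list median was 0.35, or 0.12 with the turned reading. The share of called genes was 13.3% beside 4.24% of all rows, and 0 were called with the turned reading.

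Red cell genes moved to both sides. Of 24 measured genes of haem synthesis and red cells 5 fell and 1 rose, a share of 25% beside 4.24% of all rows (3.41% negative), and 0 were called with the turned reading. The median was -0.26, or -0.32 with the turned reading. Those that fell were Alas2, the haemoglobin chaperone Ahsp, the mitochondrial iron importer Slc25a37, ferrochelatase Fech, which ends haem synthesis, and Urod, an enzyme in between. Ahsp had -1.79, -2.21 and -1.22 on the direct pairing, through pair-fed fracture and through pair-fed no fracture, and -1.66 on the turned path. Slc25a37 had -0.94, -1.18 and -1.36, and -1.13 when turned, the narrowest range of these genes. Fech had -2.19 directly and -1.59 through pair-fed no fracture but only -0.73 through pair-fed fracture. The membrane skeleton protein Ank1, which is also made in muscle, rose, with 2.06, 1.31 and 0.57 in the 3 ways and 0.21 on the turned path. The alpha globin gene Hba-a2 had -1.78, -2.57 and -0.12 and did not pass, and globin copies are nearly identical. Urod, Ank1 and Hba-a2 were named after their values were seen.

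Of 24 measured chemokines, Ccl7 and Ccl12, both attractants of monocytes, rose, Ccl4, an inflammatory chemokine, and Ccl22, a ligand of Ccr4 on T cells, fell, and 20 did not pass, so 16.7% were called beside 4.24% of all rows, 0 with the turned reading, and the median was 0.00. Only Ccl7 was called among the chemokines in the fit without pair-fed fracture. Ccl12 had 0.93, 0.87 and 1.07 on the direct pairing, through pair-fed fracture and through pair-fed no fracture, and its 2 probes gave 0.34 and 1.55. Ccl4 had -0.90 directly, -0.78 through pair-fed no fracture and -1.10 on the turned path through pair-fed fracture, and Ccl22 had -1.52, -2.23 and -0.63, so both were negative in all ways. Ccl3, a close relative of Ccl4 that was named after its values were seen, had 1.38, 2.67 and -0.25 and did not pass. The monocyte attractant Ccl2 had -0.80, 0.20 and -0.13, with a fitted value of -0.38 ± 0.23, and did not pass. No chemokine receptor of 15 passed, and Ccr7, which guides cells to lymph nodes, had the smallest p (-0.61 ± 0.14, limma adjusted p = 0.0677).

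Of 32 interleukins and related cytokines 4 fell and none rose. These were Il4, the cytokine of type 2 immunity, at -1.40 ± 0.19, the IL-12 subunit Il12a at -1.19 ± 0.21, and the IL-6 family members Lif at -0.81 ± 0.16 and Il11 at -0.73 ± 0.15. Lif was at -0.53 with the turned reading and had 0.15 on the turned path through pair-fed fracture. Il4 had -1.63, -1.51 and -0.83 on the direct pairing, through pair-fed fracture and through pair-fed no fracture. The inflammatory cytokines Il6 at -0.48 ± 0.15, Tnf at 0.09 ± 0.18 and Il1b at 0.25 ± 0.19 did not pass (limma adjusted p from 0.155 to 0.84), and their turned values were -0.27, 0.25 and 0.33. Of 29 receptors only Il1r1, which binds interleukin-1, passed, at -1.63 ± 0.30, with -2.16 directly and -0.47 through pair-fed no fracture. In the TNF and Toll-like receptor list 3 of 30 fell, which were the lymphotoxin subunit Ltb at -1.56 ± 0.23, the RNA sensor Tlr7 at -1.24 ± 0.22 and the T cell ligand Cd70 at -0.72 ± 0.15. Tlr7 had 0.35 on the turned path through pair-fed fracture. The medians of the lists of cytokines, their receptors, and TNF and Toll-like receptors were 0.05, -0.04 and 0.03. Their shares of called genes were 12.5%, 3.45% and 10% beside 4.24% of all rows (3.41% negative), and 0 were called with the turned reading.

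Markers of leukocytes gave few calls. Lysozyme Lyz2 at 0.81 ± 0.15 and the endotoxin receptor Cd14 at 0.99 ± 0.20 rose among 21 macrophage genes, and S100a9, a calcium-binding protein of neutrophils, fell (-1.68 ± 0.22) among 15 neutrophil genes, where Lyz2 is also listed. The macrophage list had 11 positive and 10 negative values and a median of 0.01, and the neutrophil list 5, 10 and -0.10. Their shares of called genes were 9.52% and 13.3% beside 4.24% of all rows, and 0 with the turned reading. In the fit without pair-fed fracture 0 macrophage genes and 1 neutrophil gene were called. S100a9 had -1.72, -2.28 and -1.01 on the direct pairing, through pair-fed fracture and through pair-fed no fracture, but -0.27 on the turned path. Myeloperoxidase Mpo, named after its values were seen, had -1.77, -2.63 and -0.36 and did not pass. None of 11 marrow B cell genes was called, with a median of -0.30 (-0.23 with the turned reading), and Cd79b of the B cell receptor was at -1.14 ± 0.26 (limma adjusted p = 0.0623). None of 19 T and NK cell genes was called in the fit to all pairings, and perforin Prf1 had -1.29, -3.26 and -0.91 (limma adjusted p = 0.0714). Of 25 interferon response genes the antiviral GTPase Mx1 rose (1.01 ± 0.20), the transcription factor Irf8 fell (-0.83 ± 0.17) and Gbp2 fell (-0.73 ± 0.14), but the 2 Gbp2 probes gave -1.68 and 0.22. The share of called interferon genes was 12% beside 4.24% of all rows. With the turned reading 0 of them were called, and also 0 without pair-fed fracture. None of 48 complement and coagulation genes passed, with the smallest p for C9 at -0.93 ± 0.22 and C3 at -0.81 ± 0.23.

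Matrix and skeletal lists held few calls. Shares of called genes were 11.1% for collagens and 1.67% for matrix proteases and inhibitors, beside 4.24% of all rows. With the turned reading 0 of them were called. Of 27 collagens the microfibril chain Col6a3 and the vessel wall chain Col8a1 rose, the bone chain Col1a2 fell and 24 did not pass, with a median of 0.03. Col6a3 had 2.19, 2.52 and 0.62 on the direct pairing, through pair-fed fracture and through pair-fed no fracture, with 1.09 as its turned fitted value and -0.64 on the turned path, where its partners Col6a1 and Col6a2 were at -0.46 and -0.18. As titled Col6a1 was at 1.49 ± 0.33 and Col6a2 at 1.03 ± 0.23, and neither passed (limma adjusted p = 0.0629 and 0.0603). Col6a1 and Col6a2 were named after their values were seen. Col3a1, the early fibrous collagen, was at 0.11 ± 0.24. None of 30 early callus matrix genes passed, and their median was 0.17, or 0.07 with the turned reading. Periostin Postn was at -0.27 ± 0.20, osteopontin Spp1 at 0.57 ± 0.34, and the smallest p were those of thrombospondin Thbs4 at -0.94 ± 0.20 and Fbln1 at -0.80 ± 0.17. Of 60 matrix proteases and inhibitors only Adam6 passed, at -1.65 ± 0.31.

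Of 26 osteoblast genes Col1a2, at -0.90 ± 0.18, was the only one called, and the median was 0.02, or -0.06 with the turned reading. The share of called genes was 3.85% here and 4.55% for the chondrocyte genes, beside 4.24% of all rows. It was 0 for both with the turned reading. The master regulator Runx2 was at -0.15 ± 0.16 over 3 probes. None of 15 osteoclast genes passed, with a median of 0.21, and the signalling adaptor Tyrobp at 0.66 ± 0.18 and the kinase Src at 0.49 ± 0.16 had the smallest p. Of 22 chondrocyte genes the cartilage matrix protein Matn1 fell at -1.19 ± 0.16, with -1.02, -1.55 and -1.18 on the direct pairing, through pair-fed fracture and through pair-fed no fracture and -0.85 when turned. Col10a1 of hypertrophic cartilage, named after its values were seen, showed how single columns can differ, with 0.19 directly, -6.58 through pair-fed fracture and -1.10 through pair-fed no fracture.

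Signalling pathways of repair gave isolated calls. Shares of called genes were 2.27% for BMP and TGF-beta, 6.12% for Wnt and 2.04% for growth factors. They were 5.56% for angiogenesis and hypoxia, 6.25% for smooth muscle and pericytes and 4.65% for integrins and adhesion. All stand beside 4.24% of all rows, and 0 genes of these lists were called with the turned reading. Of 44 BMP and TGF-beta genes the activin subunit Inhbb fell (-1.21 ± 0.17), with -1.07, -1.69 and -1.02 in the 3 ways, and Bmp2, which induces bone formation, was at -0.15 ± 0.21. Of 49 Wnt genes the ligand Wnt1 rose (1.34 ± 0.21), and the intracellular transducer Dvl1 (-1.05 ± 0.16) and the secreted protein Dkk3 (-0.91 ± 0.16) fell. Wnt1 had -0.30 on the turned path through pair-fed fracture. Of 49 growth factors and receptors Fgf14, a channel regulator of neurons, fell at -1.81 ± 0.26. Of 36 angiogenesis and hypoxia genes the mitophagy gene Bnip3 at -1.74 ± 0.21 and haem oxygenase Hmox1 at -0.78 ± 0.16 fell, and Vegfa, the main vessel growth factor, was at -0.41 ± 0.14, with its 2 probes at -0.87 and 0.05. Bnip3 had -1.67, -2.39 and -1.24 in the 3 ways, and its 2 probes gave -1.76 and -1.72. Of 16 smooth muscle and pericyte genes Tagln rose (1.65 ± 0.26). Of 43 integrins and adhesion genes E-cadherin Cdh1 at -1.41 ± 0.22 and the junction protein Jam3 at -1.20 ± 0.20 fell. None of 24 adipocyte genes passed.

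Of 45 listed cell cycle and replication genes 4 fell and none rose, a share of 8.89% beside 4.24% of all rows, where most calls were negative too (3.41%), and 0 were called with the turned reading. The list median was -0.06, or -0.17 with the turned reading. The proliferation antigen Mki67 had -1.53, -1.64 and -1.70 on the direct pairing, through pair-fed fracture and through pair-fed no fracture and -1.58 on the turned path, so its 3 ways differed by less than its SE of 0.21. The mitotic activator Cdc20 had -0.85, -1.20 and -1.02, and -1.07 when turned. Cdc6, which loads the replication helicase, was at -1.44 ± 0.19 and the helicase subunit Mcm7 at -0.98 ± 0.17. The replication clamp Pcna, named after its values were seen, had -2.05, -0.83 and -0.23 and did not pass.

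Of 14 histone genes 5 fell and none rose, a share of 35.7% beside 4.24% of all rows (3.41% negative), and 0 were called with the turned reading. The median was -0.39, or -0.49 with the turned reading. Those that fell were 4 H2B genes, Hist1h2bo at -2.06 ± 0.28, H2bc8 at -1.83 ± 0.31, Hist1h2bh at -1.74 ± 0.28 and Hist2h2be at -1.51 ± 0.28, and the H2A gene Hist1h2an at -1.18 ± 0.20. H2B and H2A package DNA and most of their copies are made in the phase of DNA synthesis. Hist1h2bh had -1.92, -1.77 and -1.34 in the 3 ways and 0.68 on the turned path, where Hist1h2an had 0.26. With the turned reading the fitted values were -1.13 for Hist1h2bh, -0.72 for Hist1h2an and -1.52 for Hist1h2bo. Copies of H2B genes are nearly identical, so their probes are not independent and the copy named for a probe is uncertain.

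Groups of general cell function held few calls, with the largest share among chaperones. None of 66 cytosolic ribosomal proteins passed, and their median was 0.00. Of 58 mitochondrial ribosomal proteins Mrpl37 rose (1.75 ± 0.34) and Mrpl19 and Mrpl14 (-0.76 ± 0.15, or -0.48 with the turned reading) fell. Mrpl14 had 0.18 on the turned path through pair-fed fracture. Of 70 respiratory chain genes Cox6a2 rose and the assembly factor Ndufaf6 fell (-0.98 ± 0.19), with 48 positive and a median of 0.24, or 0.10 with the turned reading. Ndufaf6 had 0.07 on the turned path. Of 113 proteasome and ubiquitin genes Uchl1 rose and Ube2g1, a ubiquitin-conjugating enzyme, fell (-1.46 ± 0.17). Shares of called genes were 5.17% for mitochondrial ribosomal proteins, 2.86% for the respiratory chain and 1.77% for proteasome and ubiquitin genes. They stand beside 4.24% of all rows, and 0 of these genes were called with the turned reading. Among 73 chaperones 3 rose and 4 fell, a share of 9.59% beside 4.24% of all rows, and 0 were called with the turned reading. In the fit without pair-fed fracture 0 were called positive and 3 negative. The small heat shock protein Hspb1 at 1.51 ± 0.26, its muscle relative Hspb6 at 1.36 ± 0.26 and Dnajc9 at 0.89 ± 0.17 rose, and Dnajc11 at -1.88 ± 0.35, Dnajc27 at -1.52 ± 0.23, Hspa12a at -1.49 ± 0.25 and Pdia2 at -1.45 ± 0.22 fell. With the turned reading Hspb6 was at 0.77, and it had -0.97 on the turned path through pair-fed fracture. Hspb6, Dnajc9 and Dnajc11 lie outside the rule for named genes.

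Of 16 clock genes only Dbp fell, at -1.81 ± 0.23 (-1.91 with the turned reading). This is a share of 6.25% beside 4.24% of all rows, and 0 were called with the turned reading. The regulator of Dbp, Bmal1, was at 0.02 ± 0.16 and the repressor Cry1 at 1.18 ± 0.34, and both were named after their values were seen. None of 26 immediate early genes passed. Rhob, a small GTPase, had 2.52 directly and 4.10 through pair-fed fracture but 0.37 through pair-fed no fracture and -0.14 on the turned path. None of 58 genes of ethanol, aldehyde and P450 oxidation passed, and Aldh1a1, a retinal and acetaldehyde dehydrogenase, was at 0.55 ± 0.19. Of 42 antioxidant genes the peroxiredoxin Prdx5 rose (1.08 ± 0.14), and its relatives Prdx3 (-1.52 ± 0.22) and Prdx2 (-1.22 ± 0.23) fell with Hmox1. The share of called antioxidant genes was 9.52% beside 4.24% of all rows, and 0 were called with the turned reading. Prdx2 was at -0.72 with the turned reading and had 0.21 on the turned path through pair-fed fracture. Prdx5 had 1.19, 1.04 and 0.89 in the 3 ways and Prdx3 had -1.68, -1.97 and -0.75, so members of one enzyme family moved to both sides.

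**Figure D5:**
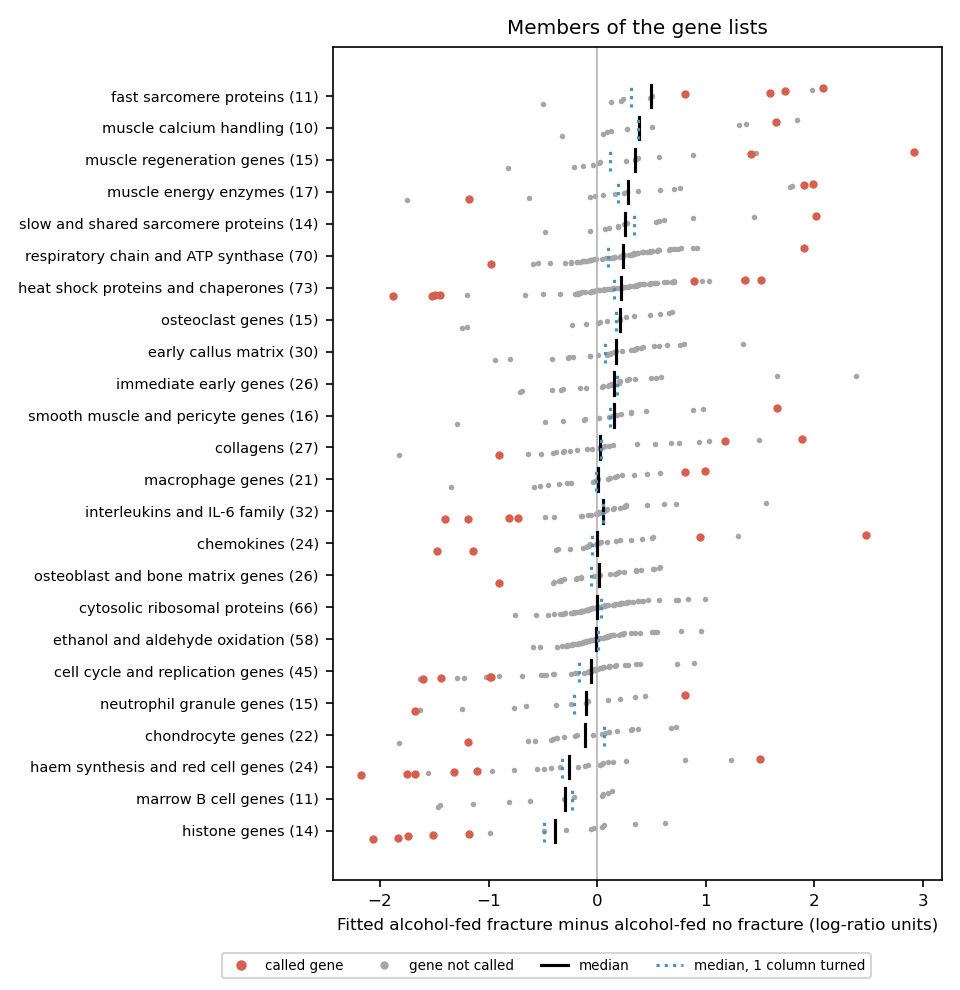
Each point is a measured gene of 24 of the lists, with the number of genes in brackets and the fitted value alcohol-fed fracture minus alcohol-fed no fracture in log-ratio units on the x axis; red points are called genes, and bars are medians as titled (black) and with 1 column turned (dotted). Medians ran from -0.39 for histone genes to 0.50 for fast sarcomere proteins.

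Genes known from organs that a hind-limb sample should not hold were also called. Of 23 liver genes 2 fell, which were the glucose phosphatase G6pc1, with -1.36, -2.21 and -1.05 in the 3 ways, and the haem carrier Hpx (-0.72 ± 0.14), a share of 8.70%. Of 39 brain and retina genes Htr1f (-1.97 ± 0.36) and the hormone precursor Pomc (-0.89 ± 0.16) fell, a share of 5.13%. Of 22 sperm genes Smcp (-1.41 ± 0.17) fell and Tnp2 (1.06 ± 0.18) rose, a share of 9.09%. Tnp2 had -0.15 on the turned path through pair-fed fracture. Htr1f had -1.94, -3.22 and -0.78 in the 3 ways, close to C1qtnf4 on the direct pairing. These shares stand beside 4.24% of all rows, and whether these genes are expressed in the tissue was not tested. Rows without a symbol were called in 4.32% of cases and named genes in 4.18%.

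The response on the alcohol diet was set against that of pair-fed rats, taken as pair-fed fracture minus pair-fed no fracture in the same fit. The interaction, alcohol-fed response minus pair-fed response, had 0 called rows of 23549 in limma (0%), with a smallest adjusted p of 0.138 and 2492 rows with an unadjusted p under 0.05, and 2 rows were called without variance moderation. For the 10 positive genes of the plot of called genes the fitted response was 1.91 to 3.35 in alcohol-fed rats and -0.14 to 1.07 in pair-fed rats, and the interaction was positive for 10 of 10 (limma adjusted p from 0.138 to 0.629). For the 10 negative genes it was -2.17 to -1.94 in alcohol-fed rats and -0.16 to 0.49 in pair-fed rats, and the interaction was negative for 10 of 10 (limma adjusted p from 0.138 to 0.22). These genes were chosen on the alcohol-fed response, which favours that direction. The muscle gene Myl11 was at 1.59 in alcohol-fed and 1.27 in pair-fed rats, Tnni2 at 2.08 and 1.04, and Mrpl37 of the mitochondrial ribosome at 1.75 and 1.33. Kdf1 had 3.35 and -0.10, Ccl7 2.47 and 0.09, and Mki67 -1.60 and -0.25. With the turned reading Myl11 was at 1.23 in alcohol-fed and 0.91 in pair-fed rats, Tnni2 at 1.60 and 0.56, and Mrpl37 at 1.31 and 0.89. The pair-fed response had 0 called rows with either reading. None of these differences between the diets passed, which does not show that the diets acted alike.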

How the data were processed

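The members and gene lists were chosen with earlier results of these data known. Each of the 6 samples is a pairing of 2 rat groups on 2-colour arrays, and per the labels' protocols amplified RNA was coupled to Cy3 or Cy5. For each pairing the authors deposited 1 log ratio a probe, as a score on a log scale of unnamed base. The sources used here do not name that base, the scanner, the background correction or the normalization, and every deposited column has a mean of 0. Of 26503 probes 22 control spots were left out. The platform annotation named 15521 probes, and 3638 symbols were updated through rat RefSeq synonyms and 59 kept. Probes of a gene were averaged. Limma 3.58.1 (R 4.3.3) was fitted to all 6 pairings with +1 for the first-named and -1 for the second-named group, leaving 3 residual degrees of freedom, with 3.66 prior degrees of freedom, two-sided tests and Benjamini-Hochberg adjustment over 23549 rows. The fit was tested on simulated data with independent errors of equal spread in every column of a row. The deposited columns differ in spread, so that test cannot judge the calls made on them. The labels do not say that samples are separate animals, so p-values measure only the spread between samples, which may be technical, and 6 pairings give little precision.

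Genes were named by 4 rules: the 10 largest called values in each direction with 1 sign in all 3 ways, the 10 in each direction with the largest smaller value on the direct pairing and the path through pair-fed no fracture (divided by the square root of the number of its columns), up to 4 called members of each list or else the 2 with the smallest p, and Bmp2, Vegfa, Il6, Tnf, Il1b, Ccl2, Spp1, Postn, Col3a1 and Runx2. Provisional symbols were skipped. Acta1, Ckm, Pygm, Myog, Myh3, Hba-a2, Col6a1, Col6a2, Col10a1, Urod, Ank1, Mpo, Ccl3, Pcna, Hspb6, Cry1, Bmal1, Dnajc9 and Dnajc11 were named after their values were seen. Alternatives turned single columns, used fewer pairings, changed scale, centring, moderation or probe averaging, or left out each pairing.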

Additional observations from a re-analysis of the deposited data

How the results depend on the processing

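Of the 195 positive and 804 negative calls, 0 and 0 were left when either ratio of pair-fed fracture over an alcohol-fed group was turned and when only the pairings among pair-fed fracture and the alcohol-fed groups were used. Calls numbered 166 and 353 without pair-fed fracture, 74 and 395 with columns scaled to 1 spread, and 2 and 0 without variance moderation. Leaving out 1 pairing at a time gave 0 to 294 positive and 0 to 717 negative calls. The counts were 0 and 0 without the pairing of the pair-fed groups, without pair-fed fracture over alcohol-fed no fracture or without the direct pairing, and 294 and 624 without pair-fed fracture over alcohol-fed fracture. Median centring, robust moderation and unaveraged probes kept both counts within 1.5 times. The interaction had 2 calls without moderation and 0 under its other alternatives. Causes were not tested. Each omission leaves 2 residual degrees of freedom, and with that number the calls in both directions ran from 0 to 918. A lost call does not by itself show a smaller effect, and why some omissions lost all calls was not tested.

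No called gene named in the report changed sign under the settings that averaged probes. With unaveraged probes the 2 probes of Gbp2 gave -1.68 and 0.22. Of the uncalled genes, Bmal1 was at -0.02 with columns scaled, and with the ratio of pair-fed fracture over alcohol-fed fracture turned Col10a1 was at 0.61 and Col3a1 at -0.04. Leaving out 1 pairing at a time gave ranges of -0.11 to 0.12 for Bmal1, -0.34 to 0.11 for Bmp2, -0.58 to 0.04 for Ccl2, -0.20 to 0.35 for Col3a1, -0.03 to 0.39 for Il1b, -1.82 to 0.05 for Ldhc, -0.26 to 0.02 for Myh3, -0.09 to 0.01 for Myog and -0.12 to 0.23 for Tnf. No paired analysis was possible because each pairing of groups has a single column, so there is no second one to pair it with. Only ratios were used, so the limit that dim probes set is unknown.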
